A study of Mus musculus with 5 samples.

Results

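The proteasome is the protease of the cytosol and nucleus that breaks down proteins tagged with ubiquitin. Its genes were taken as the rows whose symbol starts with Psm, followed by a letter from a to g and a number, leaving out Psmb8, Psmb9 and Psmb10, the 3 inducible catalytic subunits of the immunoproteasome. The rule gave 45 of the 23234 genes listed in every file, and it used no measured value. The study asked how bone marrow monocytes that carry the Ym1 reporter after systemic inflammation differ from other marrow myeloid cells. It has 5 RNA-seq libraries, 1 per condition, from sorted bone marrow cells of C57BL/6 mice aged 7 weeks with the genotype +/Ym1Venus, in which the fluorescent protein Venus reports expression of Ym1, a chitinase-like protein of myeloid cells. Ly6Chi monocytes (Ly6C+ CD115+) came as Ym1+ (Venus+) and Ym1- (Venus-) cells 48 h after intravenous LPS (100 µg per mouse) and as Venus- cells of untreated, or naive, mice. Neutrophils (Ly6G+) came from mice treated with LPS in the same way and from naive mice. All animals, the naive ones included, carried the reporter allele, and the labels do not say how many mice each library holds.

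With 1 library per condition no difference below has a replicate check, and none carries a p-value. Each level is an FPKM value, fragments per kilobase of transcript scaled to the mapped fragments of the library, which can be set side by side between genes because it accounts for length. Each difference is a difference of log2(FPKM + 1), so that 1 stands for 2-fold, and it was computed over the genes that reached an FPKM of 1 in either or both of the libraries compared. It understates the change of genes with low values. Depth, as judged from the steps between the lowest values, ran from 44.7% (Ym1- monocytes) to 97.2% (naive neutrophils) of that of Ym1+ monocytes, the deepest library, and an FPKM of 10 on a transcript of 2 kb stood for 85.5 to 191 fragments. The sorts broadly matched their labels. The summed level of 5 monocyte markers was 4381 to 5069.5 FPKM in the monocyte libraries. In LPS and naive neutrophils it was 1636 and 1416, of which Ly6c2 gave 1613 and 1377. That of 6 neutrophil markers was 233572 to 238419 FPKM in the neutrophil libraries. In Ym1+, Ym1- and naive monocytes it was 13507, 1859.7 and 1038.7. B and T cell markers were at or near 0 everywhere. The red cell gene Hba-a1 stood at 10.3 FPKM in Ym1+, 2.08 in Ym1- and 12.6 in naive monocytes, and at 3.64 in LPS and 16.3 in naive neutrophils. The platelet gene Pf4 stood at 3.48, 0, 3.56, 0.922 and 16.9 in the same order. The part of these in the differences below was not tested. The calprotectin genes S100a8 and S100a9 took 27.7% and 29.96% of the FPKM of LPS and naive neutrophils but 0.172% to 2.39% of that of monocytes. FPKM values summed to 536819 to 567382 in the monocyte libraries and to 711643 and 775532 in naive and LPS neutrophils. Differences between neutrophils and monocytes are given also after rescaling by the median of ratios over 8136 genes, which moved them up by 0.70 (naive) and 0.64 (LPS). A sorted population is a bulk sample, in which fewer cells of a type and less RNA per cell cannot be told apart.

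The proteasome is built from a barrel, the core particle, and caps that sit on its ends. The outer rings of the barrel are made of alpha subunits (Psma1 to Psma7), which form the gate, and the inner rings of beta subunits (Psmb1 to Psmb7), of which Psmb5, Psmb6 and Psmb7 carry the chymotrypsin-like, caspase-like and trypsin-like sites. The regulatory cap has a base of ATPases (Psmc1 to Psmc6) that unfold substrates, scaffold and receptor subunits (Psmd1, Psmd2, Psmd4), and a lid (Psmd3, Psmd6, Psmd7, Psmd8, Psmd11, Psmd12, Psmd13, Psmd14) whose deubiquitinase is Psmd14. Dedicated chaperones assemble the core (Psmg1 to Psmg4) and the base (Psmd5, Psmd9, Psmd10) and are not part of the finished particle. Psme1 and Psme2 form the interferon-inducible activator PA28 alpha-beta, Psme3 its nuclear relative PA28 gamma, and Psme4 is the activator PA200. Psmf1 encodes PI31, a regulator that binds the core. Psma8 and Psmb11 are the alpha subunit of testis and the beta subunit of the thymus cortex. When proteasome activity falls short, the transcription factor Nrf1, encoded by Nfe2l1, is known to raise subunit genes together through antioxidant response elements, and the promoters of the members were read for the letters of such elements.

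RefSeq promoter windows (GRCm38.p6, 250 bases before to 50 after the start) were found for 37 of the 45 genes. The core of an antioxidant response element, spelled TGACNNNGC and searched on both strands, was present in 6 of these (16.2%) and in 12.4% of all 32851 windows, or 14.0% of the 27025 symbols when each symbol was counted by any of its windows. The share among the members was thus near that of promoters in general. The 6 were Psmb5 and Psmb6 of the core, Psmc6 and Psmd12 of the cap, the base chaperone Psmd9 and the activator Psme4, whose match ran over the start itself. The box CCAAT, known as the site of the factor NF-Y, was searched likewise and was present in 13 of the 37 genes (35.1%). It was present in 37.4% of all windows, or 41.1% of the symbols when each was counted by any of its windows. Among its holders were Psma1, Psma2, Psma3, Psma6, Psma7, Psmb3 and Psmd14. The sequences below are shown because Psmb5 and Psmb6 encode catalytic subunits and Psmc6 and Psmd12 are the cap genes with a match. In LPS against naive neutrophils Psmd12 (1.06), Psmb5 (0.99) and Psmd9 (0.82) lay above the median of the members, 0.73. Psmb6 (0.73) was the median gene itself, while Psmc6 (0.38) and Psme4 (0.33) lay below that median. In Ym1- monocytes after LPS against naive monocytes the split was different. There Psmd12 (0.91) and Psmc6 (0.80) lay above the median of the members, 0.62. Below it lay Psmb5 (0.61), Psmb6 (0.60), Psmd9 (0.48) and Psme4 (-0.09). A link between the letters and these differences was not tested. The printed sequences are the bases before the start around the match, 5′ to 3′ on the strand of the gene. Letters matching TGACNNNGC, or its reverse complement in Psmc6 and Psmd12, are in capitals.
Psmb5, chr14:54618004-54618072, minus strand: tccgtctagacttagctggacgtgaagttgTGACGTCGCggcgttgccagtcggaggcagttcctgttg
Psmb6, chr11:70525318-70525356, plus strand: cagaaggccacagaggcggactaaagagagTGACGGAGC
Psmc6, chr14:45329574-45329635, plus strand: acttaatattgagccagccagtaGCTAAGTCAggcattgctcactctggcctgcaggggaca
Psmd12, chr11:107479278-107479319, plus strand: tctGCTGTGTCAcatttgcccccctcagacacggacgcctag
The capitals begin 47 bases before the start in Psmb5 and 9 before it in Psmb6, but 227 and 247 before it in Psmc6 and Psmd12. A match describes letters in the window and does not show that a factor binds there.

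Of the 45 genes, 44 reached an FPKM of 1 in at least 1 library. The exception was Psmb11, at 0.0482 to 0.271 FPKM, and Psma8 came close, at 1.15 FPKM at most and listed at 0 in naive neutrophils. Core subunits were the most abundant class. Their median was 193 FPKM in Ym1+ monocytes, 211 in Ym1- monocytes, 141 in naive monocytes, 107 in LPS neutrophils and 60.3 in naive neutrophils. Cap subunits were less abundant, with medians of 94.0, 109.7, 58.0, 49.6 and 25.1 FPKM in the same order of libraries, which is kept below wherever 5 values are given. The ratio of the cap median to the core median was 0.488, 0.521, 0.411, 0.462 and 0.416. The libraries taken after LPS thus had the 3 highest ratios. The core chaperones, which act before the particle is complete, were far lower, with medians of 16.3, 19.1, 14.3, 4.52 and 2.64 FPKM. All 45 genes together took 0.882%, 0.959%, 0.669%, 0.334% and 0.221% of the FPKM of their library.

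**Figure D1:**
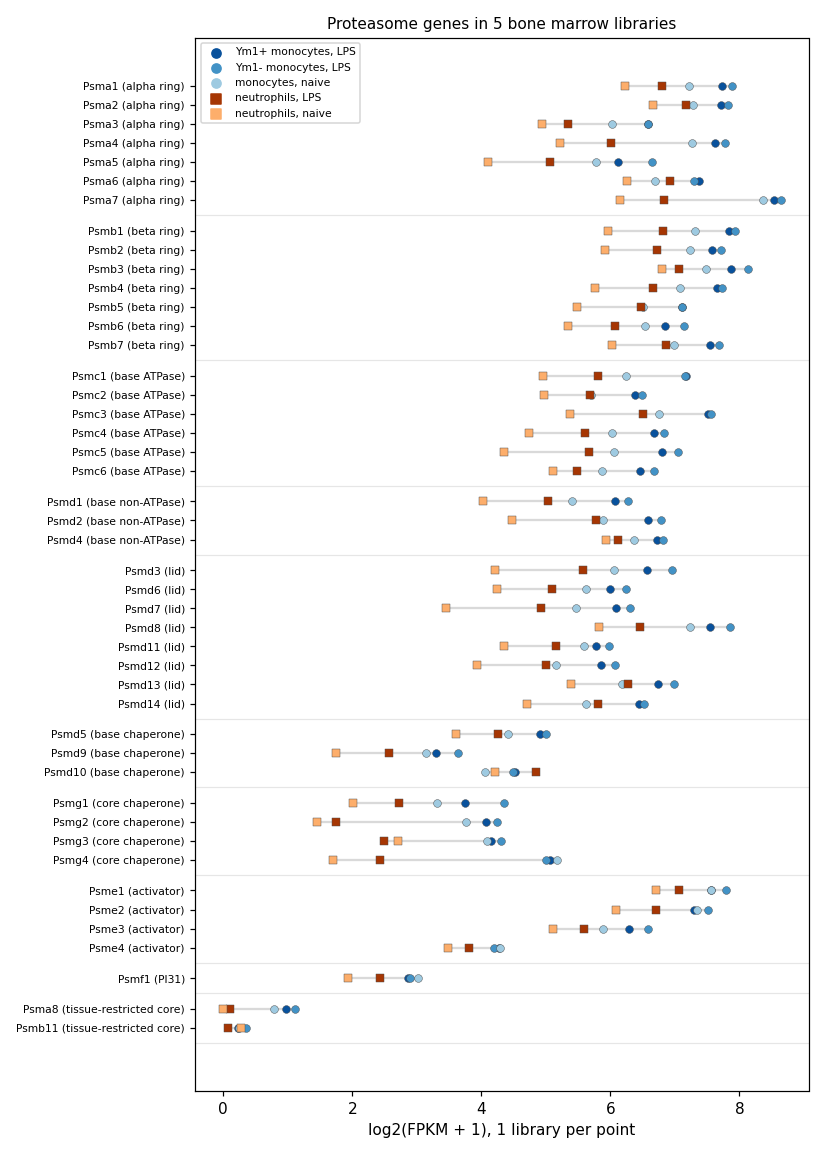
Level of each of the 45 proteasome genes, on a horizontal log2(FPKM + 1) axis; every library has its own point (circles for monocytes, squares for neutrophils), grouped by role from top to bottom. Naive neutrophils gave the lowest value for 42 of the 44 genes that reached an FPKM of 1, and Ym1- monocytes after LPS gave the highest for 38.

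The order of the libraries was the same for most members. Naive neutrophils were lowest for 42 of 44 genes, as they were for 43.1% of the 11267 genes that reached an FPKM of 1 in any library. Ym1- monocytes after LPS were highest for 38, against 32.5% of all genes. Both LPS monocyte libraries lay above naive monocytes for 40, against 35.9%. Both neutrophil libraries lay below all 3 monocyte libraries for 40 genes, against 59.5%, but after rescaling for 11 genes, against 41.3%. With rescaled values naive neutrophils were lowest for 38 genes, where 34.8% of all genes were, and LPS neutrophils lay above naive monocytes for 32, where 43.1% did. The ranking of genes within a library varied little, with Spearman's rho from 0.91 to 0.99 between pairs of libraries over the 44 genes, which share their libraries and so are no independent points.

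Within the alpha ring, Psma7 was the most abundant gene in monocytes, at 369.8, 398 and 329 FPKM, but in neutrophils it stood at 112 and 69.9. It was therefore the core gene with the lowest neutrophil level relative to monocytes. Psma5 was the least abundant core gene in 4 libraries, at 68.8, 99.4, 53.7, 32.6 and 16.2 FPKM, and Psma3 held that place in Ym1- monocytes, at 95.3. Psma6 showed the smallest gap between cell types in the core, at 166, 156, 102, 120.4 and 75.3 FPKM, so that LPS neutrophils lay above naive monocytes. In the beta ring Psmb3, a structural subunit, was the highest in every library, at 233, 279, 178, 133 and 111 FPKM.

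The 3 catalytic subunits had similar profiles. Psmb5 stood at 137, 137, 89.7, 88.0 and 43.8 FPKM, so as deposited LPS neutrophils were level with naive monocytes. After rescaling they were instead level with Ym1- monocytes after LPS (difference -0.0025). Psmb6 stood at 114, 140.0, 92.3, 66.1 and 39.5 FPKM. Psmb7 stood at 186, 205, 125, 115 and 64.4 FPKM. In each of the 3 genes both LPS monocyte libraries were the highest and naive neutrophils the lowest. The inducible subunits that take the places of these 3 gave ratios that did not run together: Psmb8 to Psmb5 was 1.28, 1.49, 1.79, 0.880 and 1.33, whereas Psmb10 to Psmb7 was 0.429, 0.488, 0.618, 0.0772 and 0.163. The ratio of Psmb9 to Psmb6 was 0.968, 0.913, 0.878, 1.29 and 1.76, higher in neutrophils, where that of Psmb10 was lower.

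The first comparison asked how the genes stood in monocytes 48 h after LPS, with Ym1- cells against naive cells of the same gate. All 31 subunits of core and cap were higher after LPS, by 0.27 (Psma7) to 0.99 (Psmc5). The median difference over 44 genes was 0.62 (1.54-fold), against 0.00 over all 10714 genes compared. Only Psmg1, a core chaperone, was 2-fold higher (1 of 44, where 2.86% of all genes were), and no member was 2-fold lower, where 4.72% of all genes were. At 1.5-fold, 27 of 44 were higher, against 11.9% of all genes. In all, 41 of 44 lay above 0, against 49.9% of all genes.

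By role, the base scaffold and receptor subunits had the highest median difference, 0.88, followed by the lid with 0.82 and the ATPases with 0.80. The beta ring had 0.62 and the alpha ring 0.56. Of the 17 cap genes, 15 lay above the core median of 0.61 and 7 lay above every core gene. Base chaperones had 0.48, core chaperones 0.35 and activators 0.21.

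Psmg1 stood at 8.96 FPKM in naive and 19.4 in Ym1- monocytes, a difference of 1.04, and stood at 12.5 in Ym1+ monocytes. Psmc5, an ATPase of the base, followed at 65.8 against 131 FPKM (0.99), just short of 2-fold, and Psmd12, a lid subunit, at 34.7 against 66.3 (0.91). In both genes the Ym1+ library, at 111 and 57.1 FPKM, also lay above the naive one. At the lower end were Psmg4, with 35.1 FPKM in naive and 30.9 in Ym1- monocytes (-0.18), Psme4 with 18.6 and 17.4 (-0.09), and Psme2 with 162 and 182 (0.17). The deubiquitinase gene Psmd14 stood at 85.9, 90.8, 48.4, 55.0 and 25.1 FPKM, a difference of 0.89. The ubiquitin receptor gene Psmd4 stood at 104, 112, 81.8, 68.7 and 59.9 FPKM, a difference of 0.45, the lowest of the base.

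The activators differed among themselves. PA28 gamma (Psme3) stood at 76.8, 94.95, 58.0, 47.3 and 33.4 FPKM, a difference of 0.70 after LPS in monocytes. Psme1 stood at 187, 222, 187, 133 and 104 FPKM, a difference of 0.25, and its partner Psme2 at 156, 182, 162, 104 and 67.2. PA200 (Psme4) stood at 18.2, 17.4, 18.6, 13.02 and 10.2 FPKM, with hardly any spread among monocytes. Psmf1 stood at 6.29, 6.40, 7.06, 4.38 and 2.82 FPKM, highest in naive monocytes, with a difference of -0.12.

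Marker genes of other states were read beside this comparison. The summed level of 5 cycling genes was 611 FPKM in Ym1- and 526 in naive monocytes, and that of 5 azurophil-stage genes 1964 and 2484, though 3 of these 5 were higher in Ym1- cells and their median difference was 0.35. The eosinophil granule gene Prg2 stood at 28.0 FPKM in Ym1- monocytes against 0.240 in naive ones. The part of these in the result was not tested. The 95% counting interval of the difference covers counting error only. It rests on the longest transcript of each gene, which can overstate fragment numbers and so make the interval too narrow. Its median half-width was 0.15, and it excluded 0 for 39 of 45 genes. The share over all genes was not computed.

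The second comparison put neutrophils after LPS against naive neutrophils. Here too all 31 core and cap genes were higher. The median difference was 0.73 (1.66-fold) over 43 genes, against 0.07 over all 9583 genes. At 2-fold, 8 of 43 were higher and none lower, where 8.96% and 5.35% of all genes were. At 1.5-fold, 31 of 43 were higher, against 20.4% of all genes. In all, 42 of 43 lay above 0, against 54.3% of all genes, the exception being Psmg3. All 8 genes past 2-fold were cap subunits, namely the ATPases Psmc3 and Psmc5, the base subunits Psmd1 and Psmd2, and the lid subunits Psmd3, Psmd7, Psmd12 and Psmd14.

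The lid subunit Psmd7 had the largest difference among members with at least 10 FPKM in either library, at 9.91 FPKM in naive and 29.4 in LPS neutrophils (1.48). Psmd3 followed at 17.6 against 46.5 FPKM (1.36) and Psmc5 at 19.3 against 49.6 (1.32). At the lower end Psmd4 stood at 59.9 against 68.7 FPKM (0.19), Psmb3 at 111 against 133 (0.27) and Psme4 at 10.2 against 13.02 (0.33). Psmd1, at 15.2 against 31.8 FPKM (1.01), was just past 2-fold. The catalytic gene Psmb5, at 43.8 against 88.0 FPKM (0.99), was just short of it on the log2(FPKM + 1) scale, though its plain FPKM ratio was 2.01. Psmb6 and Psmb7 were at 0.73 and 0.82, and Psmd14 at 1.10.

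Medians by role were 1.01 for the base scaffold and receptor subunits, 0.97 for the lid, 0.85 for the ATPases, 0.82 for the beta ring and 0.67 for the alpha ring. Base chaperones had 0.65, core chaperones 0.51 and activators 0.42. Cap genes lay above the core median of 0.76 in 13 of 17 cases, and 8 of them lay above every core gene. This is the order of classes that monocytes gave.

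The azurophil-stage markers, genes of granule proteins made in early neutrophil precursors, were all higher in LPS neutrophils: 5 of 5 were 2-fold higher and their summed level was 822 FPKM against 56.2. Cycling genes summed to 222 FPKM against 131, with 1 of 5 past 2-fold and all 5 above 0. The 5 monocyte markers were uneven: LPS neutrophils held 0.261% of the Ym1- monocyte level of Ccr2, 0.237% of Irf8, 1.66% of F13a1, 7.08% of Csf1r and 50.8% of Ly6c2. Between LPS and naive neutrophils 1 of 5 was 2-fold higher and 1 of 5 2-fold lower. The part of these cell markers in the proteasome differences was not tested. Counting intervals had a median half-width of 0.17 and excluded 0 for 40 of 43 genes.

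**Figure D2:**
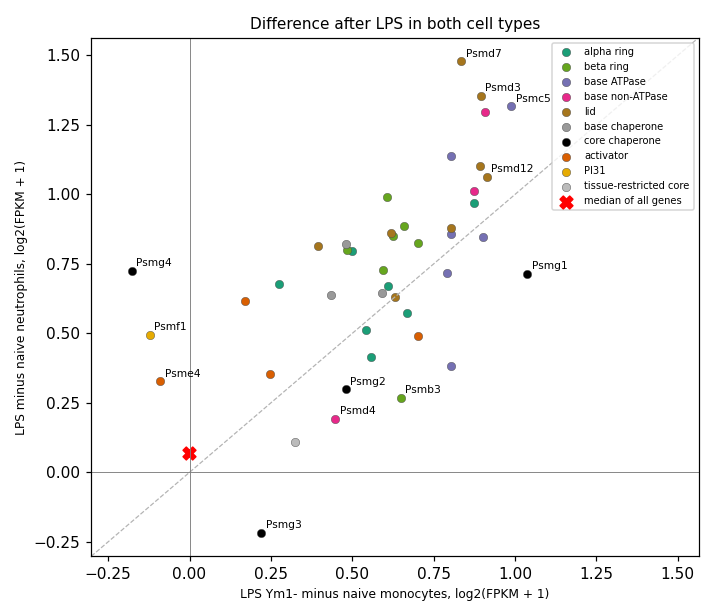
Difference of log2(FPKM + 1) after LPS in monocytes (horizontal axis, Ym1- minus naive) against that in neutrophils (vertical axis, LPS minus naive) for the 44 proteasome genes that reached an FPKM of 1, coloured by role; the dashed line marks equal differences and the red cross the median of all genes. 40 of the 44 points have the same sign in both cell types, and cap genes lie towards the upper right.

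These LPS comparisons in monocytes and neutrophils share no library. Across the 44 genes their differences gave Pearson's r of 0.58 and Spearman's rho of 0.66, and 40 genes had the same sign in both. Over all 11267 genes that reached an FPKM of 1, r was 0.32, rho 0.48 and the share with the same sign 67.0%. The 31 core and cap genes all lay above 0 in both cell types. Genes of 1 complex are not independent points, so these values describe the 4 libraries compared.

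Neutrophils and monocytes were then compared within each state. In naive mice 42 of 43 members, all except Psmd10, were lower in neutrophils (72.8% of all genes were), or 38 of 43 after rescaling (54.7%), with a median difference of -1.25 (2.38-fold lower) over 43 genes against -0.79 over all 10944 genes. At 2-fold, 28 of 43 were lower and none higher, where 42.7% and 10.8% of all genes were. After rescaling by the median of ratios the median was -0.56 against -0.16 over all genes and 7 genes were 2-fold lower, where 26.7% of all genes were. After LPS, neutrophils against Ym1- monocytes gave a median of -1.07 (2.1-fold lower) over 44 genes against -0.74 over all 10676, with 27 of 44 lower and none higher at 2-fold, where 40.8% and 11% of all genes were. Rescaling left -0.45 against -0.17 and 6 genes 2-fold lower, where 24.8% of all genes were. The median of the members was thus lower than that of all genes in neutrophils under both scalings. The share of members 2-fold lower lay above that of all genes as deposited and below it after rescaling. Other genes differed beside the members. As deposited, 5 of 5 cycling genes were 2-fold lower in neutrophils in both states, with medians of -1.98 (naive) and -1.32 (LPS). Azurophil-stage genes were 2-fold lower for 5 of 5 in naive cells (median -5.65) and for 3 of 5 after LPS (-1.29). After rescaling, the cycling genes 2-fold lower were 4 of 5 (naive, median -1.29) and 0 of 5 (LPS, -0.70), though all 5 lay below 0 in both states. The azurophil-stage genes 2-fold lower were then 4 of 5 (naive, -4.98) and 2 of 5 (LPS, -0.66). The part of these in the proteasome differences was not tested.

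Among the core chaperones, Psmg2 and Psmg4 lay below every core subunit in both comparisons between cell types. Psmg1 lay within the range of the core in both, and Psmg3 did so in naive cells. After LPS Psmg3 was level with the lowest core gene, Psma7, as deposited (both -1.81). It lay below Psma7 after rescaling (-1.25 against -1.18). It also did so with 0.1 in place of the 1 in log2(FPKM + 1) (-2.00 against -1.82). Psmg4 was at 32.5, 30.9 and 35.1 FPKM in the monocyte libraries and at 4.38 and 2.26 in the neutrophil ones. Psmg2 was at 15.9, 18.0 and 12.6 in monocytes and 2.35 and 1.72 in neutrophils. The differences between naive cells were -3.47 for Psmg4 and -2.32 for Psmg2, and after LPS they were -2.57 and -2.50. Psmg1 was at 12.5, 19.4 and 8.96 FPKM in monocytes and 5.59 and 3.02 in neutrophils, and Psmg3 at 16.7, 18.8 and 16.0 against 4.65 and 5.56.

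The median of the 4 was -1.85 in naive cells and -2.16 after LPS, and it was -1.26 and -1.61 after rescaling. Relative to the core median, which no scaling of a library can move, the core chaperone median was 0.0844, 0.0908 and 0.102 in monocytes but 0.0420 and 0.0437 in neutrophils. Counts behind these levels were small in neutrophils, roughly 12 to 46 fragments per gene in naive and 19 to 45 in LPS cells, against 56 to 197 in monocytes.

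The base chaperones differed among themselves. Psmd10, also called gankyrin, stood at 21.9, 21.5, 15.7, 27.8 and 17.5 FPKM. In the values as deposited it was the only member with its highest value in LPS neutrophils. Its differences between cell types were 0.15 in naive mice, with a counting interval that included 0, and 0.35 after LPS. After rescaling these differences were 0.81 and 0.97. Psmd9 stood at 8.87, 11.4, 7.87, 4.91 and 2.35 FPKM, and Psmd5 at 29.0, 31.2, 20.4, 18.1 and 11.2. Both followed the core in being lowest in naive neutrophils.

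Among core subunits the largest gap between naive cells belonged to Psma7 (-2.22), the next to Psma4, at 153 FPKM in naive monocytes and 36.1 in naive neutrophils (-2.06), and the smallest to Psma6 (-0.43), which turned to 0.26 after rescaling. Psma7 was also lowest after LPS (-1.81, or -1.18 rescaled) and Psma6 again closest to 0 (-0.37), turning to 0.26 likewise. In the cap Psmd7 had the largest gap in naive cells (-2.02, or -1.36 rescaled) and Psmd4 the smallest (-0.44), which turned to 0.25. Activators had medians of -0.83 and -0.77, close to those of all genes, or -0.15 and -0.14 rescaled. Psme4 after LPS was at -0.39 and turned to 0.21, and Psmf1 after LPS turned from -0.46 to 0.078. The naive and the LPS pair share no library. Over the 44 genes r was 0.87, rho 0.79 and all 44 signs were equal, as compared with 0.85, 0.87 and 89.0% over 11267 genes.

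**Figure D3:**
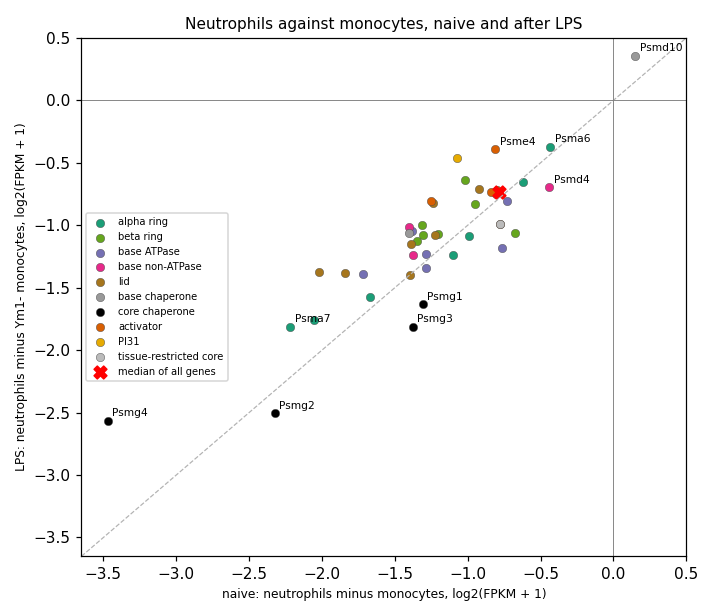
Difference of log2(FPKM + 1) between neutrophils and monocytes in naive mice (horizontal axis) and after LPS (vertical axis, against Ym1- monocytes) for 44 proteasome genes, coloured by role, with the median of all genes as a red cross, from the values as deposited. Psmg2 and Psmg4 lie farthest down, at -2.50 and -2.57 after LPS, and Psmd10 alone lies above 0 on both axes, where after rescaling Psma6 does too.

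Ym1+ and Ym1- monocytes after LPS hardly differed in these genes. The median difference was -0.16 (1.12-fold lower in Ym1+ cells) over 44 genes against -0.06 over all 10489 genes. None of the 44 was 2-fold higher or lower, where 1.38% and 1.18% of all genes were, and 1 of 44, Psmg1, was 1.5-fold lower, where 5.93% were. Below 0 lay 39 of 44 members, against 58.1% of all genes, and after rescaling 34 of 43, against 52.6%. The lowest were Psmg1, at 12.5 against 19.4 FPKM (-0.60), Psma5, at 68.8 against 99.4 (-0.52), and Psmd3, at 94.0 against 123 (-0.38). At the other end were Psma6 (0.08), Psmg4 (0.07) and Psme4 (0.06). The 3 catalytic genes Psmb5, Psmb6 and Psmb7 were at -0.0046, -0.29 and -0.13.

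Cap genes had a median of -0.21 and core genes of -0.12 in this comparison. Of 17 cap genes, 5 lay above the core median. Counting intervals excluded 0 for 27 of 45 genes, with a median half-width of 0.13, and they do not cover the spread between animals or sorts. Neutrophil markers were higher in the Ym1+ library, with 5 of 6 past 2-fold and a summed level of 13507 FPKM against 1859.7. All 5 cycling genes were also higher there, with a summed level of 800.2 FPKM against 611 and a median difference of 0.51. Prg2 was listed at 0 in Ym1+ and stood at 28.0 FPKM in Ym1- monocytes. Hba-a1 stood at 10.3 FPKM in Ym1+ and 2.08 in Ym1- monocytes, and Pf4 at 3.48 and 0. The part of these in the small proteasome differences was not tested.

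**Figure D4:**
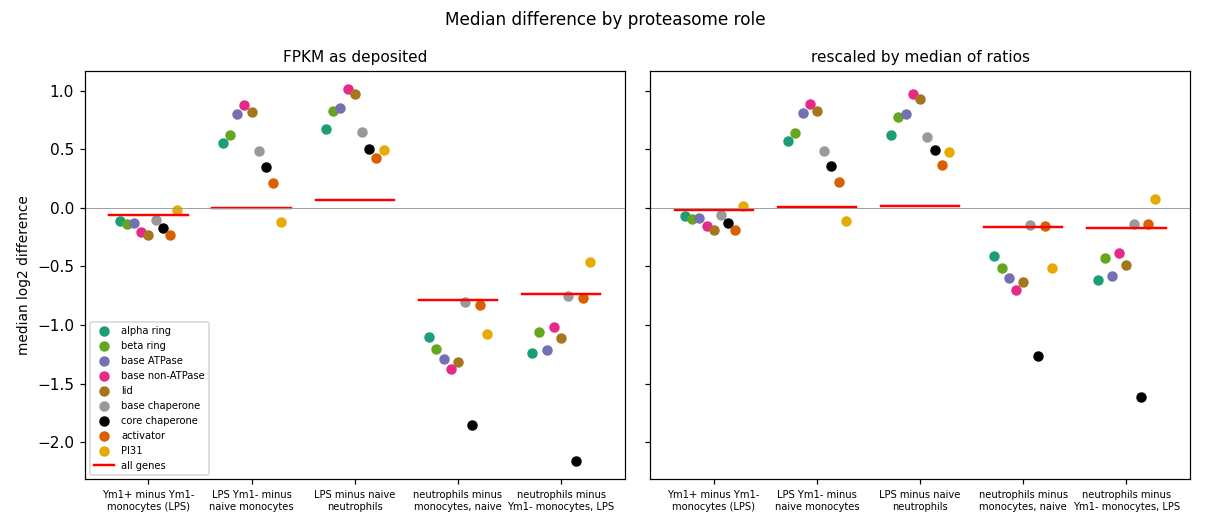
Median difference by role of proteasome gene (points) and over all genes (red lines) in the 5 comparisons, on the log2 scale, from the FPKM values as deposited (left) and after rescaling by the median of ratios (right). Rescaling hardly moves the 3 comparisons within a cell type, and it brings the median of all members in neutrophils against monocytes from -1.25 to -0.56 (naive) and from -1.07 to -0.45 (LPS).

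Genes that serve the proteasome but lie outside the symbol rule were taken from a list of 23, of which 22 were found. None was 2-fold higher or lower between Ym1- and naive monocytes, where 2.86% and 4.72% of all genes were. Their median was 0.21, between the 0.00 of all genes and the 0.62 of the members. The ubiquitin recycling enzymes of the cap, Usp14 and Uchl5, stood at 26.1 against 13.6 FPKM (0.90) and 40.6 against 24.9 (0.68), and the unfoldase Vcp at 188 against 117 (0.68). In neutrophils 3 of 22 were 2-fold higher after LPS and none lower, where 8.96% and 5.35% of all genes were, with a median of 0.41. Pomp, the maturation factor of the core, stood at 125 against 58.7 FPKM (1.08) and Usp14 at 6.76 against 1.997 (1.37). The third was Ddi2, the protease that activates Nrf1, at 43.7 FPKM in LPS and 7.71 in naive neutrophils (2.36), while in monocytes it stood at 51.5, 47.3 and 39.8. Nfe2l1 itself, which encodes Nrf1, stood at 22.5, 21.1, 26.5, 21.8 and 20.1 FPKM, highest in naive monocytes. The part of Nrf1 in the subunit levels was not tested.

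Between cell types, 10 of the 22 were 2-fold lower in naive neutrophils and none higher, where 42.7% and 10.8% of all genes were, with a median of -0.92. After LPS 7 were lower and none higher, where 40.8% and 11% were, with a median of -0.84. Both counts of lower genes were near the share over all genes. After rescaling the medians were -0.23 and -0.22. At 2-fold 8 and 3 of the 22 were then lower, where 26.7% and 24.8% of all genes were. Higher were 2 and 3 of the 22, where 2168 of 10927 and 2006 of 10614 genes were. Before rescaling, the shuttle receptors that deliver ubiquitylated proteins made up 4 of the 2-fold lower genes in each state. Among them was Rad23b, at 55.8 FPKM in naive monocytes and 13.3 in naive neutrophils. Pomp, at 238, 267, 237, 125 and 58.7 FPKM, was lower in neutrophils, by -1.99 and -1.09. The small cap subunit gene Shfm1 went the other way, at 612, 559, 547, 853 and 661 FPKM. The polyubiquitin gene Ubb also had its highest value in LPS neutrophils, at 1413 FPKM.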

How the data were processed

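RNA-seq was measured in 5 libraries of sorted bone marrow cells. Per the labels, the authors extracted total RNA from sorted cells, prepared strand-specific libraries, and used TopHat2 2.0.8 and Cufflinks 2.1.1 with the mouse build mm9. The deposited values are FPKM per gene symbol, with no counts, and 1 library stands for each condition. The annotation behind them was not given in the sources used here.

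Differences of log2(FPKM + 1) were computed in Python 3.11.15 with pandas 2.3.3 and numpy 2.4.6 over genes reaching an FPKM of 1 in either library. No test was run, since each condition has 1 library. Members were counted at 2-fold and set beside the share of all genes past the same fold. The proteasome genes, the gene lists and the comparisons were chosen with earlier results of these data known. Named genes were the catalytic subunits, the activators, Psmf1, Psmd4 and Psmd14, and in each comparison the 3 largest and 3 smallest differences among members that reached an FPKM of 10. Other genes were named as examples after their values were seen.

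Alternatives were a pseudocount of 0.1, a minimum FPKM of 5 or none, rescaling to TPM, rescaling by the median of ratios over 8136 genes, and a threshold of 1.5-fold. Relative depth came from the ratio of the lowest FPKM values (under 0.3) between libraries. Approximate fragment numbers came from the longest protein-coding GENCODE transcript of each gene and can be too high. Their 95% intervals (exact conditional binomial, scipy 1.17.1) cover counting error only. The script was tested on simulated data. Promoter sequences and their coordinates came from RefSeq (GRCm38.p6), not from the mm9 files. Near-identical copies can share reads with a gene: GENCODE names 4 pseudogenes after Psmb5, Psmb6 and Psmb7, and none of these is listed in the files.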

Additional observations from a re-analysis of the deposited data

Results flagged for a closer look

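For 4 of the 44 proteasome genes the difference after LPS had opposite signs in neutrophils and in Ym1- monocytes. With 1 library per condition the difference between cell types was not tested. Psmg4, a core chaperone, was at 0.73 in neutrophils and -0.18 in monocytes, 0.90 apart on the log2 scale. Psmf1, which encodes PI31, was at 0.49 and -0.12, which is 0.62 apart. The activator Psme4 was at 0.33 and -0.09, 0.42 apart. Psmg3, a core chaperone, was the reverse case, at -0.22 in neutrophils and 0.22 in monocytes, a difference of -0.44. The 4 signs were the same after rescaling by the median of ratios. The counting interval of the monocyte difference included 0 for all 4 genes, and that of the neutrophil difference excluded 0 for Psme4 and Psmf1 only.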

How the results depend on the processing

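No paired analysis was possible because each condition has 1 library, and for the same reason no replicate could be left out. A pseudocount of 0.1, a minimum FPKM of 5 and no minimum moved no median by more than the median counting half-width and kept every count within 1.5 times its value. Between neutrophils and monocytes the median of the members was -1.66 (naive) and -1.52 (LPS) with TPM, where all genes stood at -1.15 and -1.13. With the median of ratios it was -0.56 and -0.45, where all genes stood at -0.16 and -0.17. The median of ratios left 7 and 6 members 2-fold lower, where 26.7% and 24.8% of all genes were. With TPM 41 and 40 of 44 members were 2-fold lower, but there the median of all genes was itself past 2-fold. The cause of these shifts was not tested. With TPM, 0 members were 2-fold higher in Ym1- than in naive monocytes and 5 in LPS than in naive neutrophils. The share of all genes past 2-fold was not computed with TPM. At 1.5-fold, as deposited, 27 and 31 members were higher in the same comparisons, where 11.9% and 20.4% of all genes were. In Ym1+ against Ym1- monocytes 1 member was 1.5-fold lower, where 5.93% were. Every median kept its sign under each alternative. Depth limits Psma8 and Psmb11 most, with at most 16 fragments in any library, and then Psmg4, with 12 in naive neutrophils. The spread between animals is unknown.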
